A study of Mus musculus with 4 samples.

Results

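The genes described here encode the collagens, laminins and integrins, together with the matrix glycoproteins fibronectin (Fn1), SPARC (Sparc), nidogen-1 and nidogen-2 (Nid1 and Nid2) and perlecan (Hspg2). With earlier results of these data known, they were chosen by gene symbol. Protein-coding genes named Col, Lama, Lamb, Lamc, Itga or Itgb were taken, plus the 5 named glycoprotein genes. This gave 91 members of the 48526 gene identifiers in the count tables. They are 43 collagen chain genes, 11 laminin chain genes, 26 integrin subunit genes, the 5 matrix glycoproteins, and 6 genes that carry an integrin name but do not encode an integrin subunit (Itgb1bp1, Itgb1bp2, Itgb1bp3, Itgb3bp, Itgb2l and Itgbl1).

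RNA-seq was performed on 4 libraries of mouse embryonic stem cells (ESCs), which are kept undifferentiated in culture. The methods name the established line R1, while the titles of the libraries labelled WT give only ESC and WT. These are taken here as unedited R1 ESCs, with 2 replicates. The libraries labelled KO2 came from a single puromycin-selected clone of R1 ESCs (clone 2) that was edited with CRISPR/Cas9 and a guide RNA against the first exon of Zfp296, also with 2 replicates, so that clone and genotype cannot be told apart. Zfp296 encodes a zinc finger protein that binds the NuRD chromatin complex. Both groups grew on gelatine in serum medium with LIF, the MEK inhibitor PD0325901 and the GSK3 inhibitor CHIR99021. The titles only number the replicates, and RNA was isolated in duplicate according to the methods. Separate cultures are not described, so the p-values measure the spread between these libraries.

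Laminins are secreted as trimers of 1 alpha, 1 beta and 1 gamma chain and polymerise into the sheet of the basement membrane, in which nidogens and perlecan connect them to the type IV collagen network. Fibrillar collagens such as types I, II, III, V and XI form the fibres of connective tissue and cartilage instead, and type IX collagen sits on the surface of such fibres. Integrins are transmembrane receptors made of an alpha and a beta subunit. In early embryos and ESCs, the laminin chains alpha 1, alpha 5, beta 1 and gamma 1 and the receptor subunits alpha 6 and beta 1 are well known.

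Gene counts summed to 2829914 and 4334499 in the libraries labelled WT and to 7470907 and 7437294 in those labelled KO2, so the KO2 libraries were deeper. A count of 3 corresponded to between 0.38 and 1.12 CPM (counts scaled to library size, adjusted with the TMM method). The targeted gene did not fall: Zfp296 had 31 and 31 counts in the libraries labelled WT and 416 and 282 in those labelled KO2, a log2 fold change of 2.31 ± 0.29 (SE; adjusted p = 4.64e-05 from edgeR's quasi-likelihood fit, Benjamini-Hochberg method). Counts over the whole gene do not read out a small edit in its first exon, so the labels could not be checked from the Zfp296 counts and are in doubt. The study checked its Zfp296 KO clones by mass spectrometry and reported Dazl and Lefty2 as lower in clone 2. The counts of Dazl and Lefty2 were not compared here. Every direction below is between libraries as labelled and would turn if the labels were exchanged. The lines also differed outside Zfp296, since the Y-linked gene Ddx3y had 0 and 1 counts in the libraries labelled WT and 1979 and 2197 in those labelled KO2. Eif2s3y and Uty, also Y-linked, had no count in the libraries labelled WT. In those labelled KO2, Eif2s3y had 2014 and 2119 counts and Uty 723 and 799. The libraries labelled WT thus held next to no reads of these Y-linked genes, and their origin in R1 ESCs was assumed and not tested. ESC markers were abundant in every library. Over 8 genes they summed to 4514 and 4363 CPM in the libraries labelled WT and to 4023 and 3938 CPM in those labelled KO2. These sums did not overlap and were not tested. Of the 8 genes, Sox2 was called lower in KO2 and the other 7 were not called.

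Of the 91 members, 46 had enough counts to be tested, 22 had no count in any library and 23 had some counts but too few, at most 48 over the 4 libraries. The threshold of an adjusted p under 0.05 in edgeR's quasi-likelihood test was passed by 5 tested members, 2 higher and 3 lower in the libraries labelled KO2 (10.9%). Among all 12883 tested genes, 726 passed (5.64%), with 2.6% higher and 3.04% lower. The tested members divided into 23 with a positive and 23 with a negative log2 fold change, and their median of 0.013 was close to that of all tested genes (0.013). The 5 that passed were the collagen genes Col9a2, Col11a1 and Col5a3 and the laminin genes Lamb1 and Lama5. By family, 3 of 13 tested collagens, 2 of 8 laminins, 0 of 17 integrin subunits, 0 of 5 matrix glycoproteins and 0 of 3 integrin-named other genes were called. CPM of the groups did not overlap for 26 of the 46 tested members, beside 48.8% of all tested genes.

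**Figure D1:**
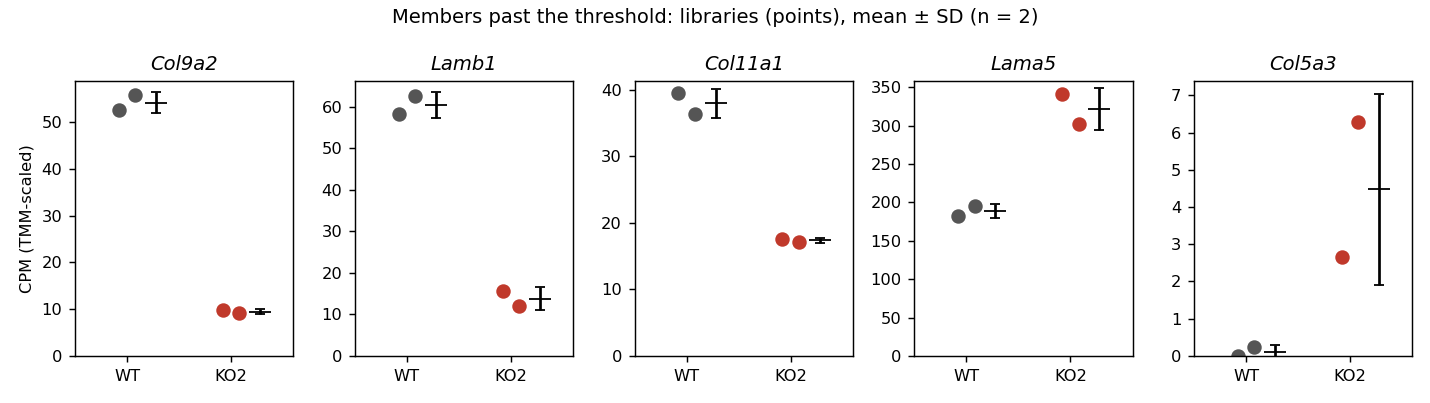
CPM (TMM-scaled, linear axes from 0, a different axis per gene) of the 5 members past the threshold in the libraries labelled WT (grey) and KO2 (red), with the mean ± SD of the 2 replicates beside the points. Col9a2, Lamb1 and Col11a1 are lower in both KO2 libraries, Lama5 and Col5a3 are higher, and Col5a3 reaches at most 6.28 CPM.

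The sequence upstream of the start of these 5 genes is shown because they are the members whose counts differed. Each is the part of the RefSeq promoter window (GRCm38.p6, a later build than the mm9 of the counts) that lies before the outermost annotated start, written 5′ to 3′ on the gene's strand. Capitals mark GGGCGG or its reverse complement CCGCCC, the core letters of a GC box. The stretches are chr4:121039316-121039565 (+ strand) for Col9a2, chr3:114030290-114030478 (+ strand) for Col11a1, chr9:20815118-20815317 (- strand) for Col5a3, chr2:180225905-180226109 (- strand) for Lama5 and chr12:31265043-31265145 (+ strand) for Lamb1.
Col9a2: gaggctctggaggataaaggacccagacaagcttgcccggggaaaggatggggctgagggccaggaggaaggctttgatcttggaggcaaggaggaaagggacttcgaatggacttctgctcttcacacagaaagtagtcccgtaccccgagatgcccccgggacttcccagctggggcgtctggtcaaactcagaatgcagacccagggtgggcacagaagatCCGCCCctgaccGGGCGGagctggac
Col11a1: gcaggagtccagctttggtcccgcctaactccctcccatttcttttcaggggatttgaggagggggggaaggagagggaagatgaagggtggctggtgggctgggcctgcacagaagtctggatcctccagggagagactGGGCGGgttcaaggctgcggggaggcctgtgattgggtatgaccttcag
Col5a3: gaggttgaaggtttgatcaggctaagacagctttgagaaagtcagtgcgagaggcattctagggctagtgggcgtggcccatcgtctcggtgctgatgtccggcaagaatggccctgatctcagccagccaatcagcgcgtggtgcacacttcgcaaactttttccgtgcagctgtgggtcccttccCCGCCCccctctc
Lama5: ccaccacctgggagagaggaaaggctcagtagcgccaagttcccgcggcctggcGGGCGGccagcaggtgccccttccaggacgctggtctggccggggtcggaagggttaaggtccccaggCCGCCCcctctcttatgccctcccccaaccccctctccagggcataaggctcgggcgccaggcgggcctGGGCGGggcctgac
Lamb1: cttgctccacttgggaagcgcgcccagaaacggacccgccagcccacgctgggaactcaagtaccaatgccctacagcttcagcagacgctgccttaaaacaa
The letters GGGCGG, on either strand, occurred 2 times in the stretch of Col9a2, 1 time in those of Col11a1 and Col5a3, 3 times in that of Lama5 and 0 times in that of Lamb1. Over the whole windows of 300 bases, which run past the start, every one of the 5 genes had at least 2 matches. The same letters were in 35.7% of the 32851 RefSeq windows of that length and in 60.6% of the 33 windows that 31 of the 46 tested members had. The windows of tested members were also richer in G and C, with a median of 62.3% beside 52.7% over all windows. The shares were not compared at equal G and C content. CCAAT, on either strand, was found upstream of Col11a1, Col5a3 and Lamb1, and of the 5 whole windows it was in those of the same genes only. It is present in 37.4% of all windows and in 30.3% of the windows of tested members. TATAAA was in none of the 5 windows and is present in 13.6% of all windows. These are letter matches and not binding sites.

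The laminin beta 1 chain gene Lamb1 (mm9 chr12:31950099-32014509, + strand) fell. It had 156 and 265 counts in the libraries labelled WT and 124 and 89 in the deeper libraries labelled KO2, or 58.1 and 62.6 against 15.7 and 11.9 CPM. Both WT libraries stood well above both KO2 libraries. Its log2 fold change was -2.13 ± 0.21 (SE; 95% interval -2.57 to -1.69; adjusted p = 3.64e-06, edgeR's quasi-likelihood test). The other tested beta chain gene, Lamb2, had 41.4 and 49.9 against 51.2 and 38.4 CPM. The KO2 libraries lay on both sides of the WT libraries, with a log2 fold change of -0.036 (95% interval -0.44 to 0.37). The third beta chain gene, Lamb3, had no count.

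The laminin alpha 5 chain gene Lama5 (mm9 chr2:179911078-179960564, - strand) rose. Its levels were 182 and 195 CPM in the libraries labelled WT and 342 and 302 CPM in those labelled KO2. The groups did not overlap, and the log2 fold change was 0.77 ± 0.12 (SE; 95% interval 0.53 to 1.01; adjusted p = 0.000423, edgeR's quasi-likelihood test). The call was lost when libraries were scaled to the ERCC spike-ins (0.85, adjusted p = 0.322) or when no gene was filtered out (0.80, adjusted p = 0.0648), in both cases without a change of direction. The laminin alpha 1 chain gene Lama1, which encodes the other abundant alpha chain, was at 224 and 229 CPM against 235 and 230 CPM. These 4 libraries lay close together, and the log2 fold change of 0.038 had an interval of -0.20 to 0.27. Lama4 (17.1 and 8.98 against 16.1 and 11.1 CPM) and Lama3 (14 and 0 against 16 and 37 counts) overlapped between groups and were not called, and Lama2 had 7 counts in all.

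Lamc1, the gamma chain gene of most basement membrane laminins, was not called. It was at 564 and 617 CPM in the libraries labelled WT and at 564 and 490 CPM in those labelled KO2, with a log2 fold change of -0.16 (95% interval -0.39 to 0.06). KO2 replicate 2 was the lowest of the 4 libraries, and the groups overlapped. No count was found for Lamc3.

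Levels can be compared between chains only per length, as CPM per kilobase of the summed exons in the mm9 annotation (RPKM). The summed alpha chain level was 41.4 and 41.9 RPKM in the libraries labelled WT and 56.2 and 52.1 RPKM in those labelled KO2. The summed beta chain level was 13.2 and 15.2 against 10.7 and 8.02 RPKM, below the alpha chain level in all 4 libraries. The share of Lamb1 in the beta chain level was 44.4% and 41.6% in the libraries labelled WT and 14.83% and 14.96% in those labelled KO2, and Lamb2 made up the rest. With the longest transcript in place of the summed exons, the share of Lamb1 was 57.74% and 54.98% against 23.0% and 23.2%, so the beta chain that led in the WT libraries depended on the length used while the lower share in KO2 did not. The share of Lama5 in the alpha chain level was 38.6% and 40.9% against 53.3% and 50.9%. Lama5 stood at 0.68 and 0.71 times the RPKM of Lama1 in the libraries labelled WT and at 1.21 and 1.10 times in those labelled KO2, so the order of these alpha chains differed between groups. These shares and ratios are given as descriptions and were not tested.

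**Figure D2:**
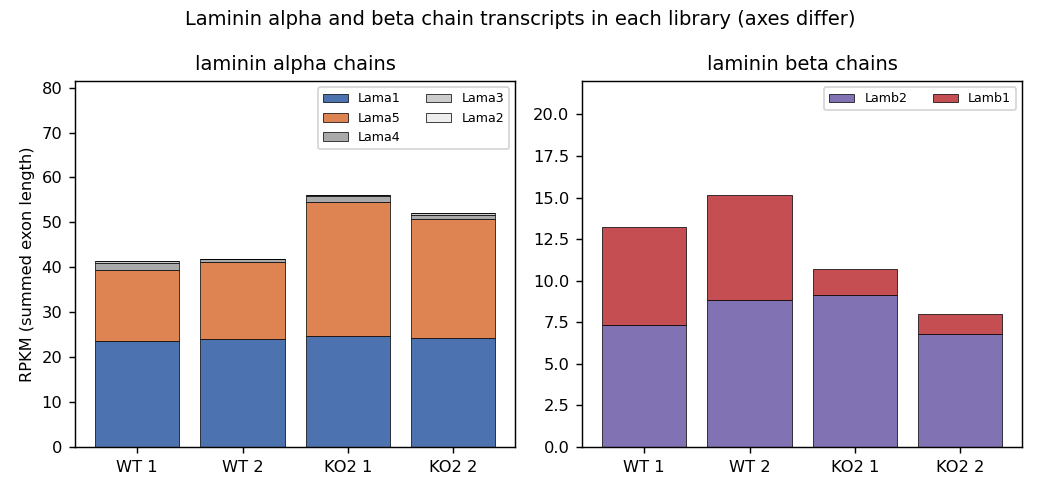
RPKM (summed exon length) of the laminin alpha and beta chain genes, stacked, in each of the 4 libraries, on linear axes from 0 that differ between panels. The Lama5 block is taller and the Lamb1 block shorter in both libraries labelled KO2, while the Lama1 and Lamb2 blocks differ less.

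Among the collagens, the gene for the alpha 2 chain of type IX collagen, Col9a2 (mm9 chr4:120711990-120727927, + strand), showed the largest drop of the tested members. It had 141 and 236 counts in the libraries labelled WT and 78 and 68 in those labelled KO2, or 52.5 and 55.8 against 9.89 and 9.09 CPM. The replicates of each group were close and the groups far apart. The log2 fold change was -2.51 ± 0.22 (SE; 95% interval -2.97 to -2.05; adjusted p = 7.08e-07, edgeR's quasi-likelihood test). Type IX collagen is a trimer of 3 different chains, and the genes of the other chains were barely detected: Col9a1 had no count and Col9a3 had 7, 2, 9 and 3 counts in WT replicates 1 and 2 and KO2 replicates 1 and 2.

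Col11a1 (mm9 chr3:113733458-113923636, + strand), which encodes a chain of the fibrillar type XI collagen of cartilage, fell as well. It was at 39.5 and 36.4 CPM in the libraries labelled WT and at 17.6 and 17.1 CPM in those labelled KO2, with no overlap. The log2 fold change was -1.12 ± 0.22 (SE; 95% interval -1.58 to -0.66; adjusted p = 0.00438, edgeR's quasi-likelihood test). The adjusted p was 0.0518 without WT replicate 1, 0.158 with ERCC scaling and 0.117 without a filter, at log2 fold changes of -1.07, -1.04 and -1.09. The second chain gene of the type, Col11a2, had 5 and 1 against 10 and 17 counts and was not called, and Col2a1, whose product also serves as a chain of type XI collagen, had 0, 1, 9 and 8 counts and was not tested.

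Col5a3 (mm9 chr9:20574494-20619511, - strand), which encodes a minor chain of type V collagen, rose from next to no reads. It had 0 and 1 counts in the libraries labelled WT and 21 and 47 in those labelled KO2, or 0 and 0.24 against 2.66 and 6.28 CPM. Both KO2 libraries were above both WT libraries, but the WT values are under the level of 3 counts and the KO2 replicates differ from each other. The fitted log2 fold change was 4.74 ± 1.26 (SE; adjusted p = 0.0306, edgeR's quasi-likelihood test) and depends on how the WT zero is handled. As a ratio of counts per depth, 68 counts against 1 gave 30.6, with a 95% interval of 5.31 to 1226 that covers counting error only. The call was lost without WT replicate 1 (adjusted p = 0.162), without WT replicate 2 (0.144), without KO2 replicate 2 (0.238) and without a filter on low counts (0.252), and DESeq2 gave the gene no adjusted p. The other chain genes of the type were not called. Col5a1 had 29.4 and 25.05 against 32.3 and 38.2 CPM (log2 fold change 0.39, 95% interval -0.07 to 0.84) and Col5a2 had 4, 21, 11 and 41 counts.

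The type IV collagen genes, which form the network of the basement membrane, were not called. Col4a1 was at 73.0 and 86.7 CPM in the libraries labelled WT and at 62.0 and 65.5 CPM in those labelled KO2. Its groups did not overlap, with a log2 fold change of -0.33 (95% interval -0.65 to -0.01; adjusted p = 0.238, edgeR's quasi-likelihood test). Col4a2, its partner chain, was at 23.5 and 25.05 against 26.4 and 21.9 CPM, with a log2 fold change of -0.011 (95% interval -0.51 to 0.49). Both genes start from 1 shared promoter region on mm9 chromosome 8 and point away from each other, with annotated 5′ ends that overlap by 22 bases, and HTSeq sets aside reads in such an overlap unless it counts by strand. Per length, Col4a1 was 3.02, 3.36, 2.28 and 2.90 times as abundant as Col4a2 in WT replicates 1 and 2 and KO2 replicates 1 and 2. Col4a5 had 8, 11, 15 and 19 counts, Col4a4 had 2 counts in all, and Col4a3 and Col4a6 had none.

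Col18a1, which encodes the basement membrane collagen that gives rise to endostatin, had the highest mean RPKM of the collagens over the 4 libraries (12.2). This rank did not hold in the libraries labelled WT. Their mean RPKM was 17.5 for Col9a2, 11.7 for Col4a1 and 11.2 for Col18a1. In the libraries labelled KO2, the means of these genes were 3.07, 9.35 and 13.1 RPKM. Col18a1 was at 79.8 and 77.3 against 91.0 and 93.4 CPM, with a log2 fold change of 0.23 (95% interval -0.06 to 0.53). It was not called although the groups did not overlap. Of the other tested collagens, Col10a1, Col13a1 and Col17a1 had no more than 76 counts in any library and none was called. Of the 30 collagen genes that were not tested, 10 had no count and 20 had a few. Those of type I collagen, the main collagen of bone and skin, had 1, 1, 6 and 2 counts for Col1a1 and 0, 7, 1 and 0 for Col1a2. None of the 8 genes of types VI, VII and XXVIII was tested. The most counted of the untested members was Col7a1, the collagen of anchoring fibrils, with 2, 1, 10 and 35 counts, and 3 more, Col20a1, Col16a1 and Col2a1, likewise had most of their counts in the deeper libraries labelled KO2. These 4 were picked after their values were seen and were not tested in the main fit. With no filter on low counts, where 69 members were tested, 0 members were called higher in KO2.

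**Figure D3:**
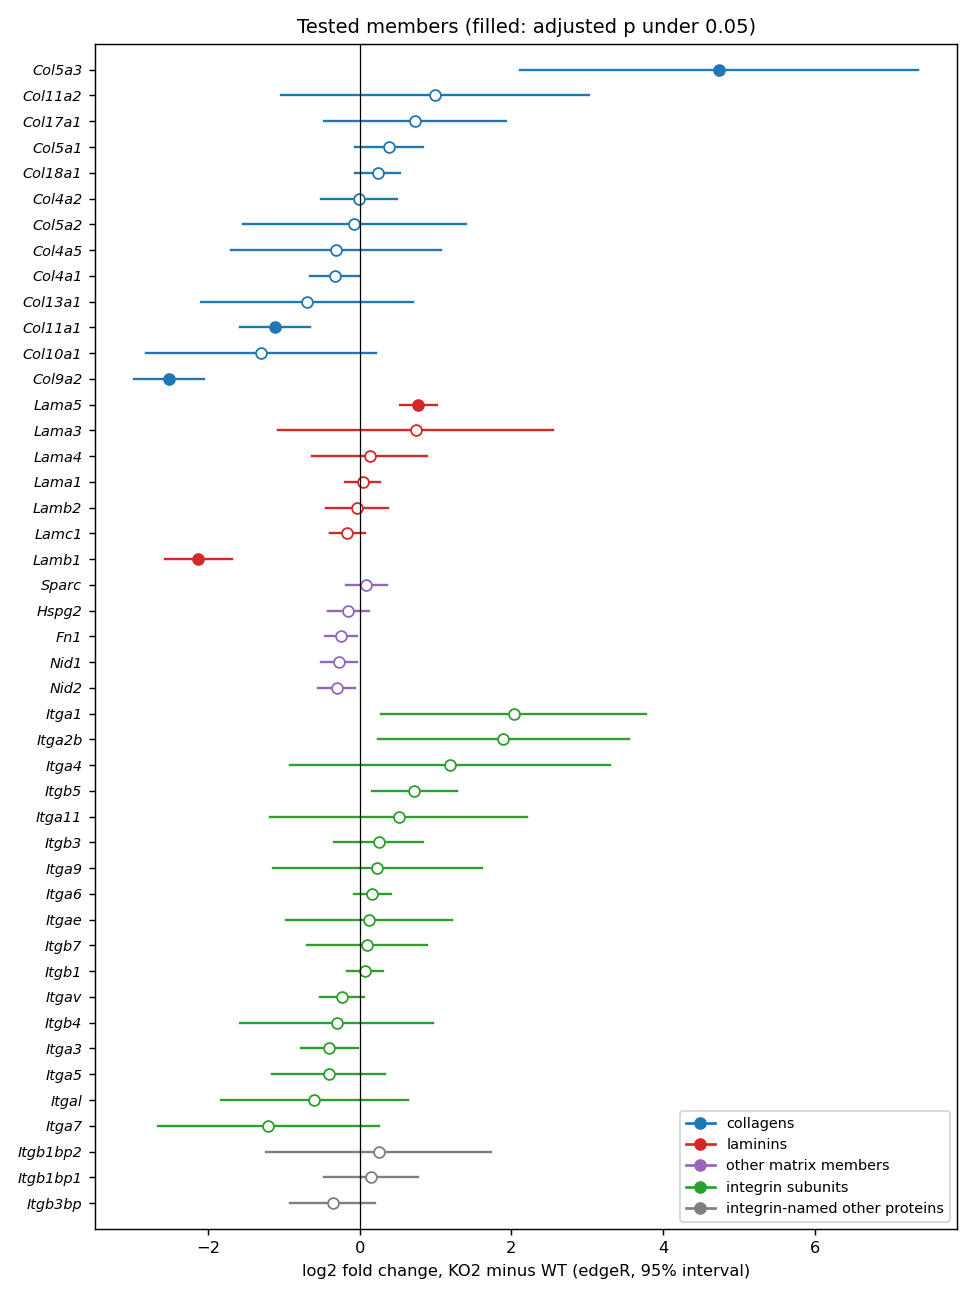
Log2 fold change (KO2 minus WT, edgeR) of 45 of the 46 tested members with 95% intervals, grouped by family, with filled points for an adjusted p under 0.05. The filled points are 3 collagens and 2 laminins; the intervals of well counted genes such as Lama1, Itgb1 and Lamc1 lie close to 0, and those of thinly counted genes span several units.

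Among the matrix glycoproteins, 5 of 5 were tested and none was called by edgeR or by DESeq2. An unadjusted p under 0.05 in edgeR's quasi-likelihood test was found for 3 of them. The share of all tested genes under that unadjusted cutoff was not counted. This and the unadjusted counts below therefore have no background to be read against. Fn1, the fibronectin gene, had the highest RPKM of all members (119.6) and made up 21.1% to 24.9% of the members' summed CPM. It was at 1113 and 1054 CPM in the libraries labelled WT and at 951 and 873 CPM in those labelled KO2. Both KO2 libraries were below both WT libraries, but the difference did not pass the threshold (log2 fold change -0.25, 95% interval -0.46 to -0.04; adjusted p = 0.172, edgeR's quasi-likelihood test). Nid1 and Nid2, whose products link laminin to type IV collagen, gave similar values. Nid1 was at 461 and 531 against 433 and 387 CPM (log2 fold change -0.28; adjusted p = 0.173, edgeR's quasi-likelihood test). Nid2 was at 209 and 222 against 177 and 173 CPM (log2 fold change -0.30; adjusted p = 0.148, edgeR's quasi-likelihood test). Both had groups that did not overlap. Hspg2, the perlecan gene, was at 134 and 129 against 124 and 112 CPM, and its groups did not overlap either. Its log2 fold change was -0.15 (95% interval -0.42 to 0.12). Sparc, which encodes a collagen-binding protein, had groups that overlapped and a log2 fold change of 0.09 (95% interval -0.19 to 0.36).

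None of the 17 tested integrin subunits passed the threshold of edgeR's quasi-likelihood test, and DESeq2 called 0. An unadjusted p under 0.05 was found for 4, a count without the share of all tested genes beside it. Their median log2 fold change was 0.12, beside 0.01 over all tested genes. Itgb1, which pairs with most alpha subunits of matrix receptors, had the highest level of the subunits, a mean of 67.0 RPKM. It was at 283 and 252 CPM in the libraries labelled WT and at 279.5 and 279.4 CPM in those labelled KO2. The KO2 values lay between the WT values, and the log2 fold change of 0.065 had an interval of -0.17 to 0.30. Itgb1 held 83.7% to 86.7% of the summed RPKM of beta subunits in WT and 81.3% to 82.6% in KO2.

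Itga6, the alpha subunit of the main laminin receptor of ESCs, was at 289 and 358 CPM in the libraries labelled WT and at 369 and 358 CPM in those labelled KO2. WT replicate 1 was the lowest and the other libraries were close, with a log2 fold change of 0.17 (95% interval -0.08 to 0.41). Itga3, a further laminin-binding subunit, was at 53.7 and 71.4 against 52.4 and 43.0 CPM and was not called (log2 fold change -0.40; adjusted p = 0.223, edgeR's quasi-likelihood test). Itgav, the alpha subunit of receptors for vitronectin and fibronectin, was at 122 and 154 against 111 and 125 CPM, with a log2 fold change of -0.23 (95% interval -0.52 to 0.06). Itga5, whose product pairs with beta 1 in the classical fibronectin receptor, was at 12.3 and 16.1 against 13.8 and 7.89 CPM.

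Itgb5, a partner of alpha v, had the lowest adjusted p of the integrins. It was at 13.8 and 17.2 CPM in the libraries labelled WT and at 29.0 and 22.9 CPM in those labelled KO2. The groups did not overlap, but the log2 fold change of 0.72 (95% interval 0.16 to 1.28) did not pass the threshold (adjusted p = 0.136, edgeR's quasi-likelihood test). Itgb7, best known from lymphocytes, was at 8.20 and 10.4 against 8.62 and 11.6 CPM. The largest positive values of subunits, picked after they were seen, belonged to thinly counted genes. Itga1, a collagen receptor subunit, had 0, 8, 24 and 49 counts (log2 fold change 2.03; adjusted p = 0.18, edgeR's quasi-likelihood test), and Itga2b, known from platelets, had 5, 2, 30 and 29 counts (log2 fold change 1.89; adjusted p = 0.187, edgeR's quasi-likelihood test). The leukocyte subunits Itgam, Itgax, Itgad and Itgb2 had no count, nor did Itga2, Itgb6 and Itgb8. The integrin-named proteins that are no subunits, Itgb1bp1, Itgb1bp2 and Itgb3bp, had log2 fold changes from -0.36 to 0.25, none was called by edgeR or DESeq2, and 0 had an unadjusted p under 0.05.

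**Figure D4:**
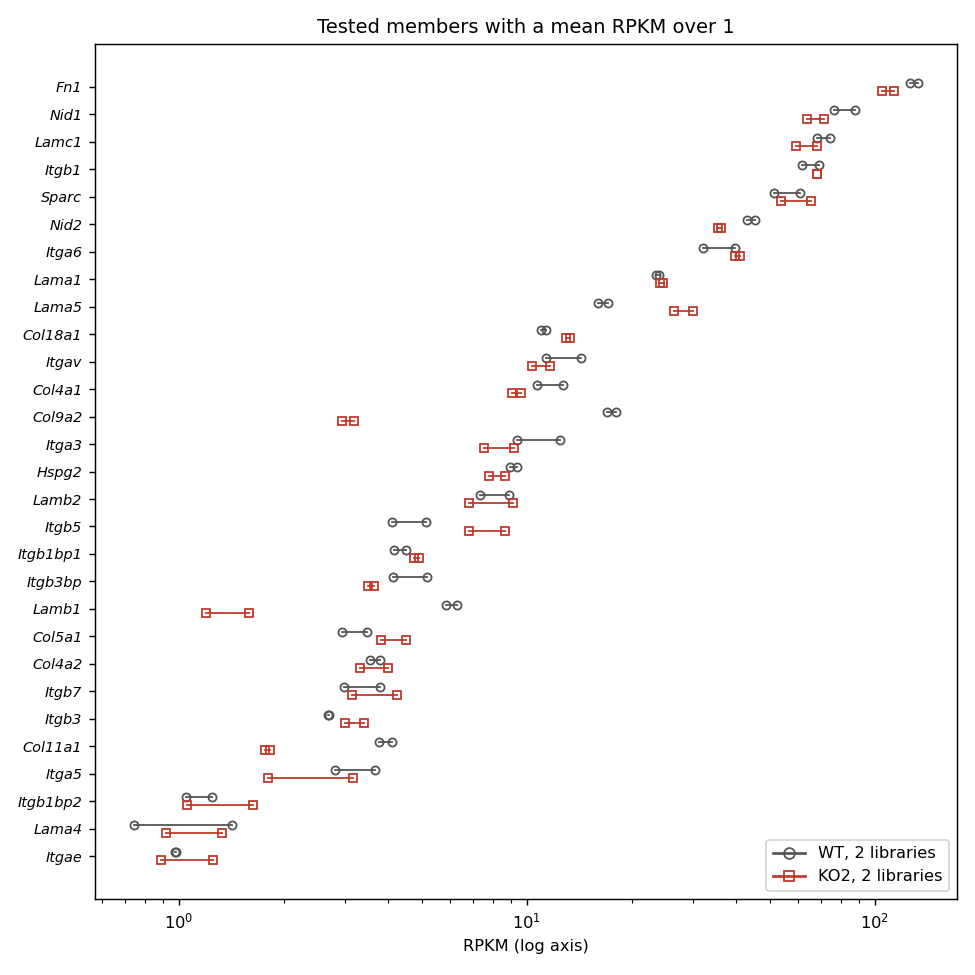
RPKM (log axis) of 29 tested members with a mean over 1 RPKM, in the 2 libraries labelled WT (grey circles) and the 2 labelled KO2 (red squares), ordered by mean. Fn1 leads, followed by Nid1, Lamc1, Itgb1 and Sparc, whose ranges overlap, and Col9a2, Lamb1 and Col11a1 lie clearly to the left in both KO2 libraries.

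By RPKM averaged over the 4 libraries, the order began with Fn1 (119.6), Nid1 (74.9), Lamc1 (67.6), Itgb1 (67.0), Sparc (58.1), Nid2 (40.0), Itga6 (38.1), Lama1 (24.1) and Lama5 (22.4). The ranges of Nid1, Lamc1, Itgb1 and Sparc over the libraries overlapped, so their order is not resolved. The first collagen in the order, Col18a1, stood at 12.2. In the libraries labelled WT alone, Col9a2 stood above Col18a1, with means of 17.5 and 11.2 RPKM. The 91 members together took 0.414% to 0.469% of scaled counts, 4477 and 4694 CPM in the libraries labelled WT and 4448 and 4137 CPM in those labelled KO2. Collagens summed to 326 and 332 CPM in WT and 266 and 289 CPM in KO2. Laminins summed to 1196 and 1267 against 1330 and 1188 CPM, and integrin subunits to 824 and 917 against 912 and 898 CPM. Only the collagen sum and that of the matrix glycoproteins (2091 and 2141 against 1907 and 1726 CPM) did not overlap among these 4 sums, which were not tested. The collagen sum includes the called genes Col9a2 (means of 54.2 CPM in WT and 9.49 CPM in KO2) and Col11a1 (37.9 and 17.4 CPM). Of the 13 tested collagens, 5 had a positive and 8 a negative log2 fold change, with a median of -0.07. The lower sum therefore does not describe every collagen.

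Several members are genomic neighbours, less than 50 kb apart in mm9. Beside Col4a1 and Col4a2, Itga2, with no count, lies 26037 bases from Itga1. Of the 5 called members, none has another member as such a neighbour, and they sit on 5 different chromosomes.

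The enzymes that build and crosslink collagen were listed by function, 30 genes with an identifier of which 21 were tested. In edgeR's quasi-likelihood test, 3 were lower and 1 higher in the libraries labelled KO2, with a list median of -0.17. Calls in this list and the following ones are to be read beside the 5.64% of all tested genes called. The lists were chosen with earlier results of these data known. Plod2, a lysyl hydroxylase of collagen telopeptides, fell from 163 and 224 CPM to 110 and 107 CPM (log2 fold change -0.84; adjusted p = 0.00128, edgeR). P4ha1, a catalytic subunit of prolyl 4-hydroxylase, fell from 96.9 and 95.9 to 53.9 and 62.7 CPM (log2 fold change -0.73; adjusted p = 0.00565, edgeR). The lysyl oxidase-like crosslinking enzymes went opposite ways. Loxl2 was at 8.94 and 11.3 against 2.92 and 2.94 CPM (log2 fold change -1.81; adjusted p = 0.0257, edgeR), and Loxl4 at 1.86 and 1.65 against 6.34 and 9.09 CPM (log2 fold change 2.13; adjusted p = 0.0463, edgeR). All 4 lost their call with ERCC scaling (adjusted p = 0.0673 to 0.598, edgeR) and with no filter on low counts (adjusted p = 0.16 to 0.219, edgeR), and Loxl4 also in DESeq2 (adjusted p = 0.0865). Plod2 kept its call whichever library was left out. P4ha1 lost it without WT replicate 1 or KO2 replicate 1 (adjusted p = 0.0544 and 0.058, edgeR). Loxl2 lost it without WT replicate 1, WT replicate 2 or KO2 replicate 1 (adjusted p = 0.0716, 0.174 and 0.0749, edgeR), and Loxl4 without WT replicate 1, WT replicate 2 or KO2 replicate 2 (adjusted p = 0.138, 0.177 and 0.196, edgeR).

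Of 33 other basement membrane genes, 18 were tested, 2 were higher and 1 was lower, with a median of 0.16. Tinagl1, which encodes a secreted matrix glycoprotein, rose from 4.84 and 3.54 CPM to 49.1 and 48.8 CPM (log2 fold change 3.58 ± 0.30, SE; adjusted p = 3.14e-07, edgeR's quasi-likelihood test). Smoc1, a SPARC-related calcium-binding matrix protein gene, rose from 2.24 and 12.8 to 27.1 and 31.8 CPM (log2 fold change 1.81; adjusted p = 0.00746, edgeR), with WT replicates that differed widely. Ntn1, the gene for the laminin-related guidance protein netrin-1, fell from 6.71 and 8.27 to 1.90 and 1.47 CPM (log2 fold change -2.16; adjusted p = 0.0261, edgeR). Tinagl1 kept its call in all 11 alternatives. Smoc1 lost it in DESeq2 (adjusted p = 0.398), with no filter on low counts (adjusted p = 0.257, edgeR) and without WT replicate 1 (log2 fold change 1.21, adjusted p = 0.0567, edgeR). Ntn1 lost it in DESeq2 (adjusted p = 0.0512), with ERCC scaling (adjusted p = 0.0534, edgeR), with no filter (adjusted p = 0.167, edgeR) and without any one of WT replicate 1, WT replicate 2, KO2 replicate 1 and KO2 replicate 2 (adjusted p = 0.0806, 0.174, 0.0716 and 0.0896, edgeR).

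On the intracellular side, 30 of 38 genes of the integrin adhesion complex were tested, with 2 higher, 2 lower and a median of 0.09. Tns1, which encodes the adaptor tensin-1, was higher (48.4 and 58.8 against 94.7 and 98.0 CPM, log2 fold change 0.83). Actn1, the gene of alpha-actinin-1, was lower (158 and 172 against 126 and 111 CPM, log2 fold change -0.48), and so was Fblim1, which encodes the filamin-binding protein migfilin (67.5 and 52.7 against 36.5 and 34.1 CPM, log2 fold change -0.75). With ERCC scaling, Tns1, Actn1 and Fblim1 were not called (adjusted p = 0.23, 0.938 and 0.569, edgeR), nor with no filter (adjusted p = 0.127, 0.282 and 0.227, edgeR). The call of Tns1 held whichever library was left out. Actn1 was not called without WT replicate 1, WT replicate 2 or KO2 replicate 2 (adjusted p = 0.0803, 0.155 and 0.176, edgeR), nor Fblim1 without WT replicate 1 or KO2 replicate 2 (adjusted p = 0.162 and 0.0523, edgeR). The talin gene Tln1, which couples integrins to actin, was not called, at 228 and 213 against 240.2 and 225.6 CPM.

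Of 28 matrix proteases and inhibitors, 16 were tested, 2 higher and 1 lower with a median of -0.09. Htra1, a secreted serine protease gene, was at 31.7 and 28.6 against 83.9 and 71.5 CPM (log2 fold change 1.37; adjusted p = 7.86e-05, edgeR). Timp2, which encodes an inhibitor of matrix metalloproteinases, had 13 and 2 against 156 and 74 counts (log2 fold change 2.74; adjusted p = 0.0123, edgeR). Of 30 other integrin ligands, 12 were tested, and Icam1, a ligand of leukocyte integrins, was the 1 that passed, at 55.9 and 57.4 against 32.2 and 26.2 CPM (log2 fold change -0.96; adjusted p = 0.00397, edgeR). Htra1 kept its call in all 11 alternatives. Icam1 kept it whichever library was left out and lost it with ERCC scaling (adjusted p = 0.251, edgeR) and with no filter (adjusted p = 0.143, edgeR). Timp2 lost it in DESeq2 (adjusted p = 0.406), with no filter (adjusted p = 0.282, edgeR) and without WT replicate 2 (log2 fold change 1.61, adjusted p = 0.164, edgeR). Over the 5 lists, 97 of 159 genes were tested, 7 were higher and 8 lower, which is to be read beside the 2.6% and 3.04% of all tested genes.

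**Figure D5:**
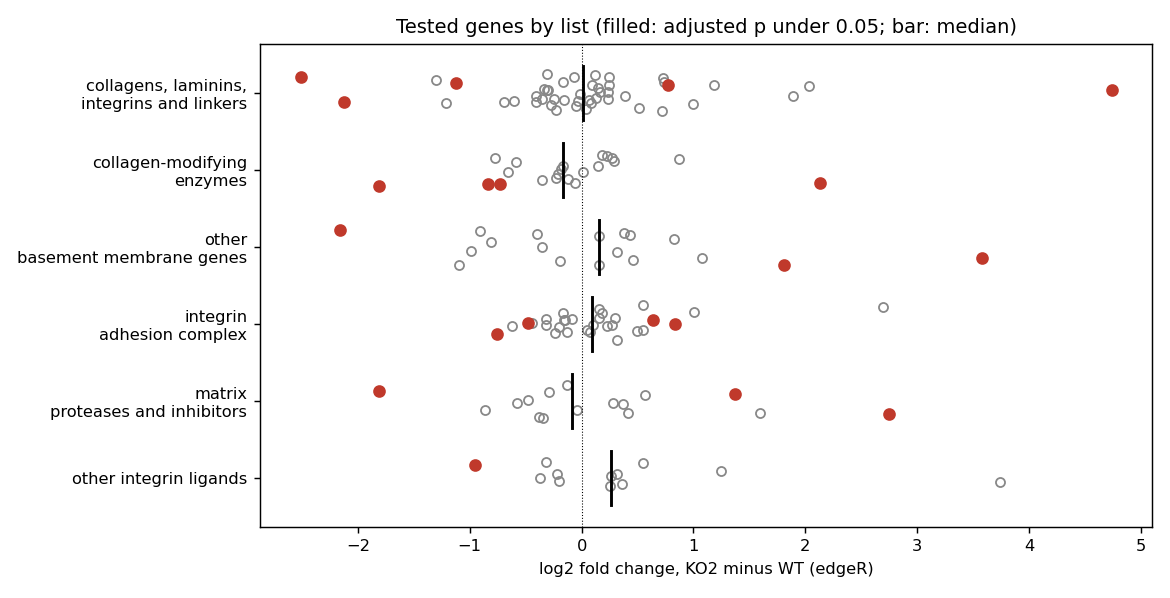
Log2 fold change (KO2 minus WT, edgeR) of the tested members and of the tested genes of 5 related lists, each point a gene and each black bar the median, with filled red points for an adjusted p under 0.05. Points jitter vertically for visibility only; the medians lie between -0.17 and 0.26, and called genes lie on both sides of 0 in every row but that of the other integrin ligands, which holds 1, below 0.

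Markers of other cells were summed in the same way. Of 11 primitive or parietal endoderm markers, 3 were tested and none was called in edgeR's quasi-likelihood test, by DESeq2 or at an unadjusted p under 0.05, and their summed level was 10.4 and 3.31 CPM in the libraries labelled WT and 7.99 and 7.89 CPM in those labelled KO2. Of 11 fibroblast or feeder cell markers, 7 had no count in any library, and the summed level was 4.10 and 12.3 against 7.99 and 11.1 CPM, with 1 gene tested and none called in any of these ways. Of 6 primed epiblast markers, 3 were tested and none was called by edgeR or DESeq2, with 1 at an unadjusted p under 0.05 and a summed level of 79.8 and 76.6 against 101.8 and 97.4 CPM, which did not overlap. Its part in the results was not tested. In bulk RNA, fewer cells with a transcript and less transcript per cell cannot be told apart.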

How the data were processed

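In all, 4 RNA-seq libraries were analysed, 2 labelled WT and 2 labelled KO2, grouped by their labels. According to the methods, rRNA was depleted, strand-specific libraries were made, and the authors mapped reads to mm9 with hisat2 and deposited raw HTSeq counts per gene and library, neither normalized nor pooled. Tool versions, annotation and counting options are not given in the sources used here. HTSeq's summary rows and 92 ERCC rows were kept out of library sizes, and 41.2% to 47.1% of reads in the summary were on genes.

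The members and all gene lists were chosen with earlier results of these data known. Genes were kept with filterByExpr (minimum count 10, minimum total 15) and scaled with TMM, and KO2 was compared with WT over all 12883 genes with edgeR 4.0.16 (R 4.3.3, glmQLFit and glmQLFTest, condition only) and Benjamini-Hochberg adjustment at 0.05. Standard errors were derived from the F statistic. The study's own tool, DESeq2 (1.42.0), was an alternative among 11. The fit was tested on simulated data. Symbols, exons and coordinates came from an mm9 annotation that covers 32782 of 48526 identifiers. Promoters came from RefSeq (GRCm38.p6), which had windows for 31 of the tested members. Named genes were the called members, the 3 highest per family by RPKM, laminin, type IV collagen and glycoprotein genes, and called genes of the lists. Some genes that met this rule are not reported here.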

Additional observations from a re-analysis of the deposited data

How the results depend on the processing

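Col9a2 and Lamb1 kept their call in all 11 alternatives, with log2 fold changes of -2.57 to -2.45 and -2.34 to -1.95. Members higher in KO2 numbered 2, and 1 with ERCC scaling, 1 with at least 10 counts in every sample (which left 32 members and removed Col5a3), 1 with DESeq2 (which gave Col5a3 no adjusted p), 0 with no filter on low counts and 1 to 2 when a library was left out. Members lower numbered 3, 2 with ERCC scaling, 2 with no filter and 2 to 3 when a library was left out, where the lone library is taken to vary like the other group. Over all genes, the calls fell from 335 higher and 391 lower to 29 and 32 without a filter and to 90 and 73 with ERCC scaling, which shifted the median log2 fold change by 0.11 and 0.08. Without WT replicate 1 they were 121 and 149, and without WT replicate 2, 218 and 202. DESeq2 gave 204 and 303. The cause was not tested.

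Deviations of same-numbered WT and KO2 libraries from their group means had a correlation of -0.0166 over the tested genes. Whether same-numbered libraries were prepared together was not tested. With the replicate block, 2 members were higher and 3 lower, and 470 and 476 of all genes.

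For the 15 called genes of the related lists, alternatives added after seeing the data left 6 called whichever library was left out and 2, Tinagl1 and Htra1, called in every alternative, while 10 lost their call with ERCC scaling and 12 with no filter.

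For 7 named members that were not called, the sign changed with the setting. Col4a2 was at 0.050 with ERCC scaling, 0.017 with no filter and 0.013 with at least 10 counts in every sample. Lamb2 was at 0.015 with ERCC scaling. With a library left out, log2 fold changes ran from -0.15 to 0.11 for Col4a2, -0.26 to 0.15 for Lamb2, -0.0175 to 0.15 for Itgb1, -0.14 to 0.30 for Itgb7, -0.59 to 7.51 for Lama3 (the upper end with a lone WT library of 0 counts), -0.33 to 0.60 for Lama4 and -0.064 to 0.22 for Sparc. With the longest transcript as length, Lamb1 made up 56.4% of beta chains in WT and 23.1% in KO2 (means).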
